A study of Mus musculus with 2 samples.

Results

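The interleukin-1 genes described here are 10 of the 32285 genes counted in CD45+ skin leukocytes: the ligands Il1a, Il1b and Il18, the antagonist Il1rn, the receptor genes Il1r1, Il1rap and Il1r2, and the inflammasome genes Nlrp3, Casp1 and Casp4. They were taken as a list by gene symbol, and all 10 were found in the matrix. The 2 groups are DPCP day 2, CD45+ cells of mouse skin challenged with diphenylcyclopropenone (DPCP), a contact sensitizer, and control day 0, CD45+ cells of control skin. In both, whole-thickness skin was digested with Liberase TM, CD45+ cells were sorted, and the cells of both groups were tagged and sequenced as 1 pooled library with droplet chemistry that reads the 3' end of transcripts. Strain, age, sex and the number of mice behind each tag are not given in the sources used here. Each group is 1 tagged sample, so no test between groups was made. Intervals are 95% intervals that cover counting error only, and they say nothing of how skin varies between mice.

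Interleukin-1 alpha and beta both signal through the receptor encoded by Il1r1 together with the accessory chain encoded by Il1rap. The product of Il1rn occupies Il1r1 without signalling, and the product of Il1r2 binds the ligands as a decoy. Interleukin-1 beta and interleukin-18 are made as inactive precursors that caspase-1 cleaves after an inflammasome such as that of NLRP3 has formed, while mouse Casp4 encodes caspase-11, which senses bacterial lipopolysaccharide in the cytosol. In skin, interleukin-1 is a known early signal of contact hypersensitivity. Transcript counts do not show cleavage or release of these proteins.

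The genes include pairs of chromosomal neighbours. Il1a (chr2:129299610-129309972) and Il1b (chr2:129364570-129371139) lie on the minus strand of chromosome 2 (mm10). Casp1 (chr9:5298517-5307265) and Casp4 (chr9:5308828-5336783) lie on the plus strand of chromosome 9. Il1r2 (chr1:40074079-40125231) and Il1r1 (chr1:40225080-40317257) lie on the plus strand of chromosome 1. Over all cells, Il1a and Il1b had like ratios between the groups, while Casp1 and Casp4 did not. In neutrophil-like cells the ratios of Il1a and Il1b were unlike as well, at 13.8 and 2.08. The promoters of the first 2 pairs are shown. Each is the 250 bases before the RefSeq start (GRCm38.p6), and RefSeq promoters were found for 10 of the 10 genes. Capitals mark matches on either strand to 4 motifs. The C/EBP motif was searched as TTNNGNAA. For the AP-1 motif the letters were TGANTCA. The TATA box was sought as TATAAA, and the NF-kappaB motif is given by its name alone.
Il1a, chr2:129309973-129310222, minus strand: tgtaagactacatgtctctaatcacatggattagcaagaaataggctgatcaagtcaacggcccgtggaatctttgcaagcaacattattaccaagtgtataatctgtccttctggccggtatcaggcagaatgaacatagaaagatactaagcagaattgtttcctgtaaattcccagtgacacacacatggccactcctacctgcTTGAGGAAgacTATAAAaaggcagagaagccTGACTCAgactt
Il1b, chr2:129371140-129371389, minus strand: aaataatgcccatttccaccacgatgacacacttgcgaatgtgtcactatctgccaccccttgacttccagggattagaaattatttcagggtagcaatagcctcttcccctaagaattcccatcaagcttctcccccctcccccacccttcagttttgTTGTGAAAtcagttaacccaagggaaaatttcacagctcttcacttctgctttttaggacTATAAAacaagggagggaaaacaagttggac
Casp1, chr9:5298267-5298516, plus strand: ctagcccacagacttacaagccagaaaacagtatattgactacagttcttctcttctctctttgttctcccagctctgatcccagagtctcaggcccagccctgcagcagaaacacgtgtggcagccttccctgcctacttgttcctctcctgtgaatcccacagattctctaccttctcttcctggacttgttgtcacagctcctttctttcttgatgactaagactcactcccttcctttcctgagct
Casp4, first of its RefSeq starts, chr9:5308599-5308848, plus strand: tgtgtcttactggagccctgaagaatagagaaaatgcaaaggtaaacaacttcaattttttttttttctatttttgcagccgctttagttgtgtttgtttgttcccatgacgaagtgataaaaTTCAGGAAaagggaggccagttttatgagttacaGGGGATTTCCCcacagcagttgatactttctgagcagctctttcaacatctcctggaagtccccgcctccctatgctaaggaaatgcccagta
The Il1a window held a C/EBP match 43, a TATA match 32 and an AP-1 match 12 bases before the start, and the Il1b window a C/EBP match 91 and a TATA match 31 bases before it. The Casp4 window held a C/EBP match 127 bases before the start and overlapping NF-kappaB matches at 93 and 92. No match was found in the Casp1 window. Of 32851 RefSeq promoter windows of this length, 36.8% held the C/EBP letters, 12.4% TATA, 6.75% AP-1 and 3.9% NF-kappaB, so the C/EBP letters alone are common. These are matches of letters, not measured binding.

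Of 7866 DPCP barcodes (53748585 UMIs) and 6280 control barcodes (54397154 UMIs), 7588 DPCP and 4970 control cells were kept. A UMI, or unique molecular identifier, marks 1 captured transcript. The kept cells had a median of 4728.5 UMIs in DPCP and 8803 UMIs in control. Ptprc, which encodes CD45, had a UMI in 96.3% of DPCP and 98.8% of control cells. Summed markers of keratinocytes stood at 6.97 and 8.7 CPM (UMIs of a gene scaled to 1000000 UMIs of the summed cells) in DPCP and control, those of fibroblasts at 1.45 and 7.95 CPM with Pdgfra at 0 in DPCP, and those of endothelial cells at 35.6 and 17.8 CPM with Tie1 at 0 in DPCP. The cells' own tag made up a mean of 81.8% of tag counts in DPCP cells and 96.9% in control cells. It was under 80% in 37.7% of kept DPCP and 0% of kept control cells. Cells of each class were found by marker genes, none of them a member of the list, and 845 DPCP cells (11.1%) and 1375 control cells (27.7%) lay within 0.05 of a gate's score limit. Neutrophil-like cells were 4746 of the DPCP cells (62.5%) and 131 of the control cells (2.64%), while 11.7% and 51.6% passed no gate.

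Over all kept cells, 7 of the 10 genes were at least 2-fold higher in DPCP with an interval that excludes 1, and none was at least 2-fold lower. The same rule called 14.3% of the 14377 genes with at least 50 UMIs higher and 10.0% lower. The median log2 ratio, DPCP over control, was 3.97 for the list, against -0.17 for all genes. Il1b had 124631 UMIs in DPCP and 4232 in control, or 2346 CPM against 81.6 CPM, a ratio of 28.7 (27.9 to 29.6). Il1a had 86.3 CPM in DPCP and 2.95 CPM in control, a ratio of 29.2 (24.9 to 34.6). The antagonist gene Il1rn had 927 CPM and 44.7 CPM in DPCP and control, a ratio of 20.8, and the decoy gene Il1r2 had 429 CPM and 17.1 CPM, a ratio of 25.1. Both agonist genes, the antagonist gene and the decoy gene thus stood higher together. Il1rap (530 CPM in DPCP, 40.2 CPM in control), Nlrp3 (353 CPM and 19.0 CPM) and Casp4 (155 CPM and 28.8 CPM) were higher as well. The remaining 3 genes were not called: Il18 had 41.1 CPM in DPCP and 44.5 CPM in control, Casp1 30.2 CPM and 30.9 CPM, and Il1r1 7.29 CPM and 13.6 CPM, a ratio of 0.535 (0.471 to 0.607). The neighbours Il1a and Il1b therefore had overlapping intervals, while Casp4 had a ratio of 5.36 (5.07 to 5.67) and its neighbour Casp1 one of 0.975 (0.909 to 1.05). Il1r2 and Il1r1, neighbours as well, had ratios of 25.1 and 0.535. Over all cells, more cells of a type and more RNA per cell cannot be told apart, which is why the levels are next given within classes.

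**Figure D1:**
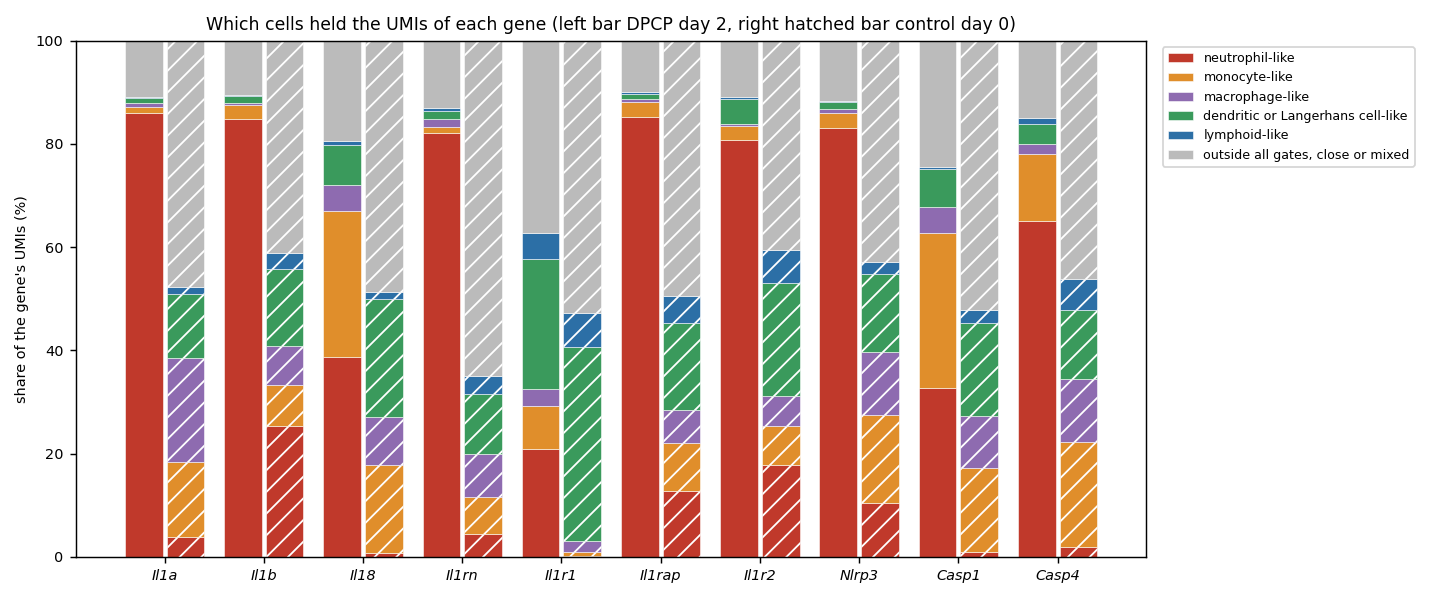
Share of each gene's UMIs by cell class (percent, vertical axis), with DPCP day 2 as the left and control day 0 as the right bar of each gene. DPCP neutrophil-like cells hold 84.8% of DPCP Il1b UMIs but 38.7% of Il18 and 32.8% of Casp1 UMIs.

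Most DPCP transcripts of the genes that were higher sat in neutrophil-like cells. These cells held 85.9% of the Il1a, 84.8% of the Il1b, 82.1% of the Il1rn, 80.8% of the Il1r2, 85.3% of the Il1rap and 83.0% of the Nlrp3 UMIs of DPCP cells, against 42.0% of all UMIs. Casp4 was less concentrated, at 65.0%. The shares of Il18 (38.7%), Casp1 (32.8%) and Il1r1 (20.9%) were below the share of all UMIs. In control, neutrophil-like cells held 0.906% of all UMIs but 25.3% of the Il1b, 17.7% of the Il1r2, 12.7% of the Il1rap and 10.5% of the Nlrp3 UMIs, and 4.32% of the Il1rn UMIs.

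The make-up of the cells and the levels within them can be set side by side by exchanging one at a time over 16 groups of cells. With DPCP levels but the control make-up, the ratio to control was 5.58 for Il1b, and with control levels but the DPCP make-up it was 12.3. For Il1rap these values were 2.61 and 6.52. Those 2 genes moved more with make-up than with level. Il1rn had 9.14 by levels and 2.57 by make-up, and Il1a had 7.83 and 2.47, so that these moved more with level. Il1r2 (6.61 and 8.97) and Nlrp3 (4.79 and 5.55) moved with both, and Casp4 had 2.64 and 1.69. The control side of this exchange rests on 131 neutrophil-like cells. Neutrophil-like cells entered it as 1 group, so make-up among their clusters counts as level. Clusters 0, 3 and 10, which hold such cells, together held 1 control cell of any class, and within cluster 4 the Il1rn ratio was 0.998. Level and make-up within the class therefore cannot be told apart for Il1rn, Il1a and the others.

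**Figure D2:**
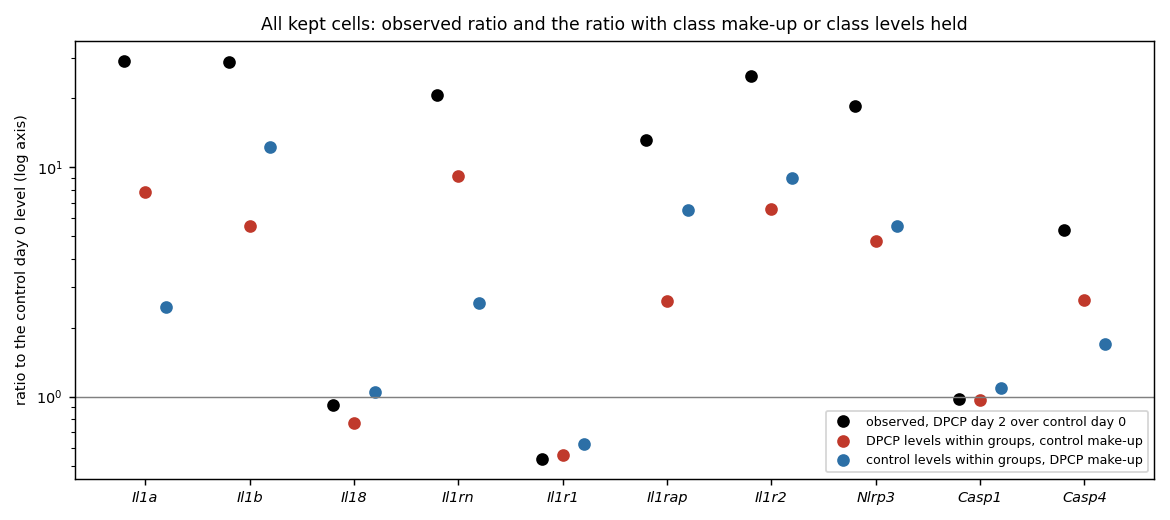
Ratio to control day 0 over all kept cells for each gene (log axis), as observed, with only the levels within groups taken from DPCP day 2, and with only the make-up of groups taken from it. For Il1b the make-up alone gives 12.3 and the levels alone 5.58, whereas for Il1rn they give 2.57 and 9.14.

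Within classes, ratios were smaller and the genes called differed. In neutrophil-like cells 6 of 10 genes were called higher and none lower, beside 5.81% of all genes called higher and 14.0% lower. With TMM scaling, which moves the median log2 ratio of all genes by 0.44 in these cells, 11.5% were called higher and 6.29% lower. In monocyte-like cells 4 of 9 tested genes were higher (4.97% of all genes higher, 5.90% lower), and in macrophage-like cells 6 of 9 (4.25% higher, 3.0% lower). In type 2 dendritic cell-like cells 5 of 9 were higher and 1 was lower (3.08% higher, 3.66% lower). In mature dendritic cell-like cells, which carry the migratory marker Ccr7, all 4 tested genes were higher (8.50% higher, 4.13% lower), but 6 of the 10 genes had under 50 UMIs there. In epidermal gamma-delta T cell-like cells 2 of 2 were higher (3.55% higher, 3.69% lower; 2.64% and 4.61% with TMM scaling, a shift of -0.11). In T cell-like cells 2 of 5 were higher (3.56% higher, 3.37% lower). Only 28 of the 111 DPCP T cell-like cells had at least 80% own tag, so these calls could not be checked under that limit. Il1b and Il1rn were called higher in every one of these 7 classes. Within the 1 cluster that a class shared most between the conditions, fewer calls were made in both largest DPCP classes. Of neutrophil-like cells in cluster 4, only Casp4 was called higher, in place of 6 genes. Of monocyte-like cells in cluster 5, Il1b and Il1r2 were called higher, in place of 4 genes.

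Neutrophil transcripts were also counted outside neutrophil-like cells, so a measure of them is given for the other classes. S100a8 and S100a9, which encode calprotectin of neutrophils, had ratios of 36.1 and 35.5 over all cells. More than 19 UMIs of them together, a limit set at the percentile 99 of control cells outside the neutrophil gate, were found in 76 of 712 DPCP (10.7%) and 3 of 499 control monocyte-like cells. The other classes held 3 to 8 such DPCP cells and 0 to 4 such control cells. Where a ratio falls below 2 without these cells, its value without them is given below. Il1b UMIs per S100a8 UMI were 0.111 in DPCP neutrophil-like cells, against 0.0827 in control ones. In DPCP they were 1.20 in mature dendritic, 0.708 in Langerhans, 0.537 in monocyte-like, 0.375 in T, 0.373 in type 2 dendritic, 0.361 in macrophage-like and 0.173 in epidermal gamma-delta T cells. Control values in that order were 0.390, 0.228, 0.253, 0.179, 0.275, 0.264 and 0.213. Only in epidermal gamma-delta T cells was the DPCP value the lower one, with overlapping intervals (0.132 to 0.224 in DPCP, 0.157 to 0.285 in control). The part of such RNA in the ratios of Il1b and Il1rn was not tested beyond leaving out the rich cells.

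Il1b encodes interleukin-1 beta. In neutrophil-like cells it had 4736 CPM (4708 to 4765) in DPCP and 2281 CPM (2146 to 2421) in control, a ratio of 2.08 (1.96 to 2.21). That call was lost in several settings, with 1.45 (1.35 to 1.56) within cluster 4, 1.65 when the 5% of cells with the highest doublet scores were left out and 1.61 with clusters in place of gates. Of these cells, DPCP cells lay mostly in clusters 0 (31.8%), 4 (19.8%) and 3 (19.3%), and control cells in clusters 4 (74.0%) and 13 (11.5%). A DPCP neutrophil-like cell had a median of 13 Il1b UMIs and at most 457, against a median of 6 and at most 73 in control. After thinning every cell to 1000 UMIs, 85.6% of DPCP and 76.7% of control neutrophil-like cells had an Il1b UMI (95.6% and 83.2% before thinning, with medians of 3795.5 and 2855 UMIs a cell). Thinning left out 94 DPCP and 11 control cells.

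Outside neutrophil-like cells, mature dendritic cell-like cells had the next highest DPCP level of Il1b, 564 CPM against 89.8 CPM in control, a ratio of 6.28 (4.90 to 8.17). Monocyte-like cells had 385 CPM in DPCP and 68.8 CPM in control, a ratio of 5.59 (5 to 6.27). The monocyte-like ratio sets unlike cells side by side, since 85.1% of the DPCP cells were of cluster 5 and 72.5% of the control cells of cluster 6. Monocyte-like cells within cluster 5 had 354 CPM of Il1b in DPCP and 98.4 CPM in control, a ratio of 3.60 (2.84 to 4.63). Type 2 dendritic cell-like, macrophage-like, T cell-like and gamma-delta T cell-like cells had 166, 160, 144 and 133 CPM in DPCP, with intervals that overlap their neighbours in that order. In control the same classes had 69.3, 72.8, 49.2 and 52.3 CPM. Macrophage-like cells were also unlike in make-up: DPCP cells lay in clusters 11 (59.9%), 16 (12.3%) and 6 (10.4%), and control cells in clusters 11 (43%), 6 (26.8%) and 1 (20.6%). Those in cluster 11 had 107 CPM of Il1b in DPCP and 45.5 CPM in control, a ratio of 2.35 (1.80 to 3.10). Without cells rich in neutrophil RNA, the ratio was 1.76 in macrophage-like cells and 1.47 in gamma-delta T cells, both under 2. T cells are not a known main source of Il1b, and 9.01% of DPCP and 5.15% of control T cell-like cells had a UMI after thinning (45% and 33% before thinning, with medians of 8248 and 7339 UMIs a cell). Thinned shares in DPCP macrophage-like (10.4%) and type 2 dendritic cell-like cells (12%) had intervals that overlap that of T cell-like cells, whereas those of monocyte-like (26.7%) and mature dendritic cell-like cells (29.8%) lay above it. The control monocyte-like and mature dendritic cell-like shares were 6.02% and 7.02%.

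**Figure D3:**
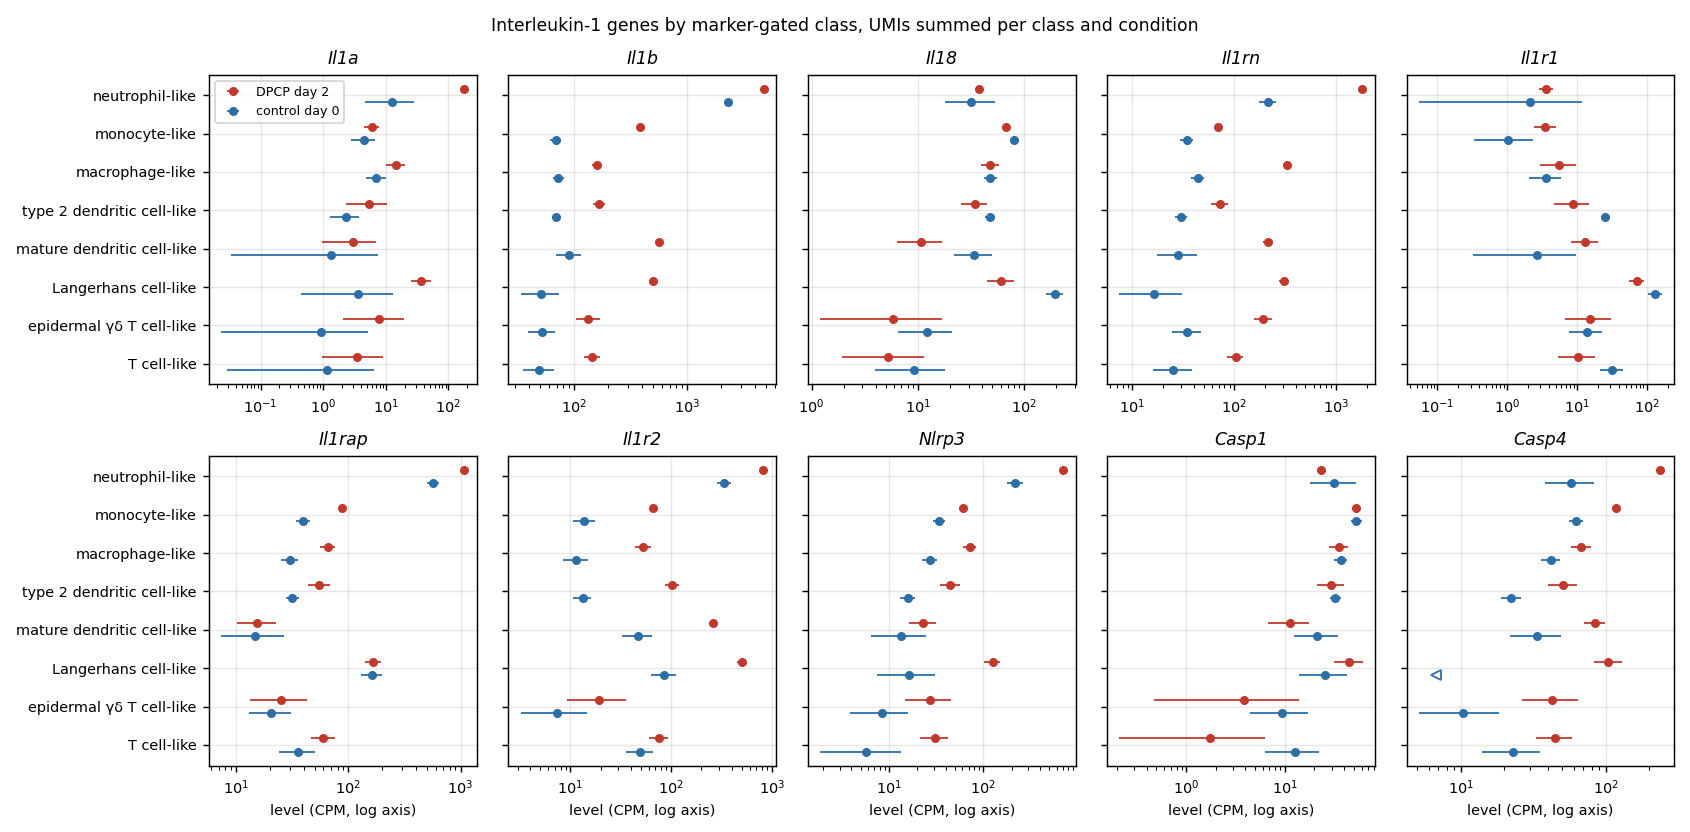
Level of each gene in CPM (horizontal log axis) in each cell class, DPCP day 2 drawn above control day 0, with exact Poisson intervals. An open marker stands at the upper bound where no UMI was counted. Il1b, Il1rn, Il1r2, Il1rap and Nlrp3 stand highest in neutrophil-like cells in both groups, while Il18 and Casp1 stand highest in monocyte-like cells among the 7 classes compared.

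Il1a, whose product is active without cleavage by caspase-1, was found mostly in neutrophil-like cells in DPCP. It had 176 CPM (171 to 182) in DPCP neutrophil-like cells and 12.8 CPM (4.68 to 27.8) in control ones, a ratio of 13.8 (6.34 to 37.7) that rests on 6 control UMIs. None of those 6 lay in cluster 4, where Il1a had 22 UMIs in 941 DPCP and 0 in 97 control cells, too few to be called. Cluster 13, with monocyte and neutrophil markers in the same barcodes, held 11.5% of the control neutrophil-like cells. No other compared class passed 14.7 CPM in DPCP. Few cells carried it: 3699 of 4746 DPCP neutrophil-like cells had no Il1a UMI, and the tenth of cells with the most held 81.4% of its UMIs, against 42.2% for Il1b. In macrophage-like cells 34 UMIs in DPCP and 31 in control gave 14.7 and 7.07 CPM, a ratio of 2.08 that became 0.892 without 6 DPCP and 3 control cells rich in neutrophil RNA. Keratinocytes, a known store of interleukin-1 alpha in skin, lie outside the CD45+ gate.

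Il18 kept another distribution. Among the 7 compared classes it stood highest in monocyte-like cells, at 67.6 CPM in DPCP and 80.6 CPM in control, a ratio of 0.839 (0.738 to 0.954). Within cluster 5 the direction was opposite, with 71.6 CPM in DPCP and 43.6 CPM in control monocyte-like cells, a ratio of 1.64 (1.14 to 2.44). Cells too few to compare stood higher, with 120 CPM in 27 DPCP type 1 dendritic cell-like cells and 194 CPM in 49 control Langerhans cell-like cells. Macrophage-like cells had 48.0 CPM and 48.1 CPM, and type 2 dendritic cell-like cells 34.2 CPM and 47.4 CPM. The ratios of monocyte-like, macrophage-like and type 2 dendritic cell-like cells did not pass 2-fold. Mature dendritic cell-like cells had 18 UMIs in DPCP and 25 in control, too few to be called, with a ratio of 0.320 (0.164 to 0.610). The ratio of Langerhans cell-like cells was 0.312 (0.219 to 0.440), also not called. Neutrophil-like cells had 37.8 CPM in DPCP and 31.9 CPM in control (15 control UMIs), a ratio of 1.19 (0.714 to 2.13). That ratio was 2.40, and called, with the highest doublet scores left out.

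Il1rn encodes the receptor antagonist. Neutrophil-like cells had 1811 CPM (1793 to 1829) in DPCP and 213 CPM (173 to 259) in control, a ratio of 8.51 (7 to 10.5). This was 0.998 (0.754 to 1.35) within cluster 4, which held most of the control cells. After thinning, 53.6% of DPCP and 20% of control neutrophil-like cells had an Il1rn UMI (76% and 42% before thinning). Both Il1b and Il1rn were found in 44.4% of DPCP and 15.8% of control neutrophil-like cells. Macrophage-like cells had the next highest DPCP level, 326 CPM against 43.8 CPM in control, a ratio of 7.44 that was 5.15 without cells rich in neutrophil RNA. Within cluster 11 macrophage-like cells had 113 CPM of Il1rn in DPCP and 43.5 CPM in control, a ratio of 2.61 (1.99 to 3.44). Mature dendritic cell-like cells had 214 CPM and 28.2 CPM, a ratio of 7.61 (4.91 to 12.5). Gamma-delta T cells of the epidermis had 191 CPM and 34.5 CPM, and T cell-like cells 103 CPM and 25.2 CPM, with ratios of 3.45 and 2.18 without the rich cells. The order of classes thus differed from that of Il1b, with macrophage-like cells above monocyte-like ones. In monocyte-like cells the ratio of 2.03 became 1.58 without the rich cells and 1.33 within cluster 5, and in type 2 dendritic cell-like cells 2.38 became 1.49.

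UMIs of Il1rn per UMI of Il1b set the antagonist gene beside the agonist gene within a class, although the number is not a ratio of molecules because transcripts differ in capture. In neutrophil-like cells it was 0.382 (0.378 to 0.387) in DPCP and 0.0933 (0.0752 to 0.115) in control. Macrophage-like cells had 2.04 (1.80 to 2.32) in DPCP and 0.602 (0.501 to 0.722) in control. In monocyte-like cells the direction was opposite, with 0.180 (0.165 to 0.196) in DPCP and 0.496 (0.409 to 0.598) in control. Type 2 dendritic cell-like cells had 0.432 and 0.435 in DPCP and control, which did not differ beyond counting error. Like cells gave other values. Within cluster 4, neutrophil-like cells had 0.0483 (0.0445 to 0.0522) in DPCP and 0.0701 (0.0520 to 0.0927) in control, with overlapping intervals and the lower value in DPCP. Within cluster 11, macrophage-like cells had 1.06 (0.843 to 1.33) in DPCP and 0.955 (0.699 to 1.30) in control, also overlapping. Within cluster 5, monocyte-like cells had 0.0848 (0.0738 to 0.0970) in DPCP and 0.229 (0.124 to 0.398) in control, so the direction there was that of the whole class.

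The receptor genes went different ways. Il1rap was highest in neutrophil-like cells, with 1075 CPM (1061 to 1089) in DPCP and 564 CPM (498 to 636) in control, a ratio of 1.91 (1.69 to 2.16) that was 2.59 with TMM scaling and 1.74 within cluster 4. Its ratio in monocyte-like cells was 2.21, or 1.97 without cells rich in neutrophil RNA and 1.30 within cluster 5, and in macrophage-like cells 2.17 (2.05 without them). Il1r1, the signalling receptor of the same complex, had 3.63 CPM in DPCP neutrophil-like cells from 81 UMIs and 2.13 CPM from 1 UMI in control. In type 2 dendritic cell-like cells Il1r1 had 13 UMIs in DPCP and 180 in control, or 8.71 CPM and 25.6 CPM, a ratio of 0.340 (0.178 to 0.596). This was the only call below 0.5 within the 7 classes. T cell-like cells had 12 and 28 UMIs of Il1r1 in DPCP and control, or 10.5 CPM and 32.0 CPM, too few to be called. Neutrophil-like cells therefore held many Il1rap and few Il1r1 UMIs in both groups.

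Il1r2, the decoy, was higher in 5 of the 6 classes with enough UMIs to test. Neutrophil-like cells had 824 CPM in DPCP and 334 CPM in control, a ratio of 2.47 (2.11 to 2.90), which was 1.62 within cluster 4, 1.96 with the highest doublet scores left out and 1.84 with clusters in place of gates. Mature dendritic cell-like cells had 263 CPM and 46.9 CPM, a ratio of 5.60 (3.96 to 8.14), and type 2 dendritic cell-like cells 102 CPM and 13.2 CPM, a ratio of 7.69 (5.91 to 10.1). Without the rich cells those ratios were 5.80 and 7.73. Monocyte-like and macrophage-like cells had ratios of 4.82 and 4.62. T cell-like cells had 75.1 CPM in DPCP and 49.2 CPM in control, which did not reach 2-fold.

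Nlrp3 encodes the sensor of the NLRP3 inflammasome. It had 698 CPM (687 to 709) in DPCP neutrophil-like cells and 219 CPM (179 to 266) in control ones, a ratio of 3.19 (2.63 to 3.91) that was 1.03 (0.797 to 1.35) within cluster 4. Type 2 dendritic cell-like cells had 44.9 CPM and 15.8 CPM, a ratio of 2.84, and 2.47 without the rich cells. In macrophage-like cells the ratio of 2.64 became 1.96 without the rich cells, 1.27 within cluster 11 and 1.36 with clusters in place of gates. Casp1, which encodes the caspase that this inflammasome activates, was not called in any of the 4 classes where it had at least 50 UMIs beside all kept cells. Its ratio was 0.737 (0.443 to 1.33) in neutrophil-like, 0.991 (0.850 to 1.16) in monocyte-like, 0.959 (0.726 to 1.26) in macrophage-like and 0.904 (0.640 to 1.25) in type 2 dendritic cell-like cells, so each interval lies under 2. Among the 7 classes Casp1 stood highest in monocyte-like cells, at 52.7 CPM in DPCP and 53.2 CPM in control. Casp4 had 239 CPM (233 to 246) in DPCP neutrophil-like cells and 57.4 CPM (37.9 to 83.6) in control ones, a ratio of 4.17 (2.86 to 6.33). It was also higher in type 2 dendritic cell-like cells, at 50.9 CPM against 22.4 CPM, and in mature dendritic cell-like cells, at 84.5 CPM against 33.5 CPM. The monocyte-like ratio of 1.90 (1.67 to 2.16) did not reach 2.

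Neutrophil-like cells were not uniform. Clusters, built without the 10 genes but from the same cells and used only to describe, split the DPCP neutrophil-like cells into 5 larger groups. Cluster 0 (1509 cells) was led by Spp1, Thbs1 and Ccl4, and cluster 3 (917 cells) by Gbp5, Olr1 and Tnf. Clusters 7 (769 cells) and 10 (468 cells) were led by Retnlg, and cluster 4 (941 cells) by Pip5k1b and Csf3r. Il1rn had 3122 CPM in cluster 0, 3457 CPM in cluster 3 and 1551 CPM in cluster 10, but 213 CPM in cluster 4 and 173 CPM in cluster 7. Il1a had 308, 396 and 132 CPM in clusters 0, 3 and 10, and 7.2 and 3.35 CPM in clusters 4 and 7. Nlrp3 followed the same split, with 1197, 792 and 680 CPM in clusters 0, 3 and 10 and 265 and 244 CPM in clusters 4 and 7.

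Il1b, Il1rap, Il1r2 and Casp4 were spread more evenly. Il1b ranged from 3323 CPM in cluster 7 to 6327 CPM in cluster 0, Il1rap from 779 CPM in cluster 3 to 1311 CPM in cluster 4, and Casp4 from 196 CPM in cluster 0 to 304 CPM in cluster 3. Cluster 0 thus combined the highest Il1b with the lowest Casp4 and, at 12.5 CPM, the lowest Casp1. Il1rn UMIs per Il1b UMI accordingly ran from 0.0483 in cluster 4 and 0.0522 in cluster 7 to 0.494 in cluster 0 and 0.935 in cluster 3. Cluster 4 alone held enough control cells (97) for a comparison within a cluster. There, Il1rn had 213 CPM in DPCP and 213 CPM in control. Nlrp3 had 265 CPM in DPCP and 258 CPM in control, and Il1b 4415 CPM in DPCP and 3044 CPM in control. Casp4 kept a ratio of 3.49 (2.16 to 6.03), with 239 CPM in DPCP and 68.4 CPM in control.

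**Figure D4:**
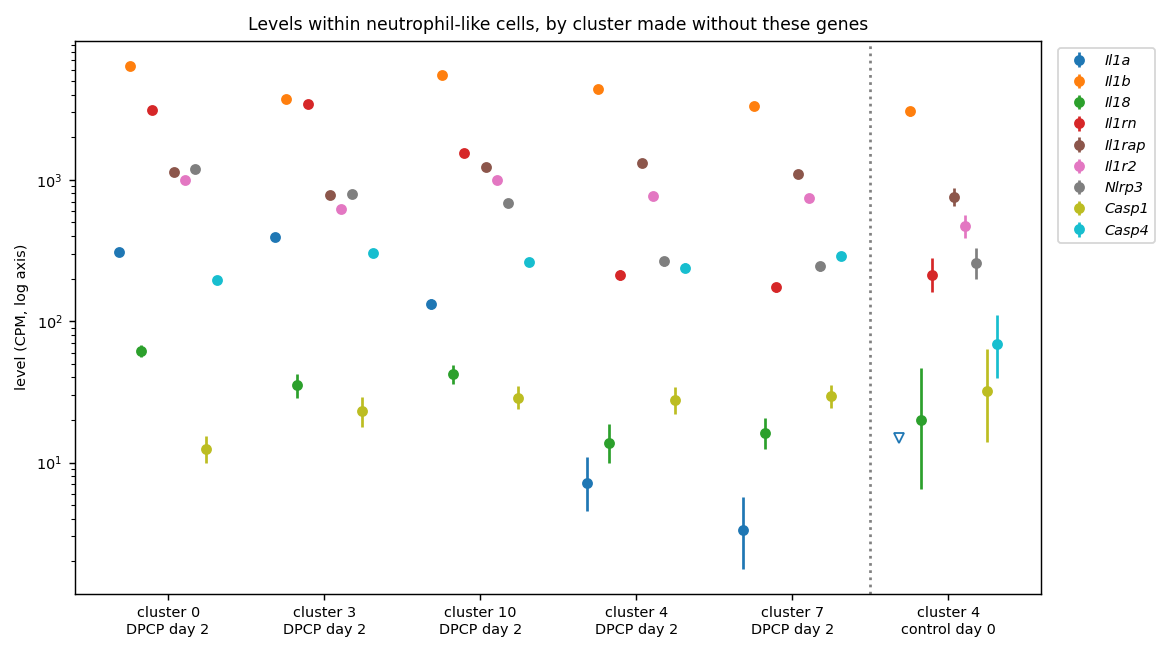
Level of each gene except Il1r1 in CPM (log axis) in the clusters of neutrophil-like cells, DPCP day 2 clusters left of the control day 0 cells of cluster 4, with exact Poisson intervals. An open marker stands at the upper bound where no UMI was counted. Il1rn and Il1a split clusters 0, 3 and 10 from clusters 4 and 7, where Il1b does not.

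The control neutrophil-like cells carried less of their own tag (median 93.8%) than control monocyte-like (96.9%) or macrophage-like cells (98.5%). DPCP neutrophil-like cells had a median of 82.4%. T cell-like cells had medians of 69.7% in DPCP and 93.5% in control. In the 43 of 131 control neutrophil-like cells with at least 95% own tag, Il1b had 2071 CPM (1874 to 2283), Il1rn 204 CPM (146 to 278), Nlrp3 189 CPM (133 to 260) and Casp4 71.4 CPM (39.0 to 120). Il1rap had 311 CPM (238 to 400) there, below the 564 CPM of all 131.

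Langerhans cell-like cells, the dendritic cells of the epidermis, numbered 49 in each group, under the 50 set for calls. Their levels and ratios are given as a description and enter no count of genes called. Il1b had 501 CPM in DPCP and 50.7 CPM in control, Il1rn 309 and 16.3 CPM, and Il1r2 502 and 85.1 CPM. Casp4 had 88 UMIs (104 CPM) in DPCP and 0 in control, at least 19.2-fold higher with a floor of 3 counts over the control cells. Il18 went the other way, with 60.5 CPM in DPCP and 194 CPM in control, a ratio of 0.312 (0.219 to 0.440). Without 3 DPCP cells rich in neutrophil RNA that ratio was 0.336, and the Il1b ratio was 9.39 in place of 9.87. Cluster 16, to which all of these cells belong, held 123 DPCP and 56 control cells, with Il18 at 55.3 and 183 CPM, Casp4 at 108 and 1.53 CPM and Il1r1 at 58.6 and 121 CPM. Nlrp3 had 126 CPM in DPCP and 16.3 CPM in control.

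Cluster 18, led by Mmp12 and Pdpn, held 128 DPCP and no control cells, and 64.1% of its cells passed no gate. Il1rn had 1557 CPM (1489 to 1626) and Il1b 1433 CPM (1368 to 1500) there. Both lay above the DPCP levels of the compared classes other than neutrophil-like cells, and Nlrp3 had 258 CPM. All cells of the cluster entered these values, gated or not. The neutrophil RNA in them is not given here. Clusters 1 and 2, which held most ungated control cells, had 50.2 and 54.6 CPM of Il1b in control.

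Of 40 further genes of the pathway, 36 had at least 50 UMIs over all cells, and 8 were called higher and 5 lower (22.2% and 13.9%, beside 14.3% and 10.0% of all genes). Among ligands, Il1f9, which encodes interleukin-36 gamma, had 363 CPM in DPCP and 10.8 CPM in control, a ratio of 33.7, and Il1f6 (interleukin-36 alpha) 75 and 3 UMIs, a ratio of 24.4 (8.04 to 121). The other 4 ligand genes had under 50 UMIs. Of 6 receptor and decoy genes, Il18rap, the accessory chain of the interleukin-18 receptor, was higher (6.83). Il1rl1, the interleukin-33 receptor (0.207), Il1rl2, the interleukin-36 receptor (0.359), and Sigirr, an inhibitory member of the receptor family (0.332), were lower. The interleukin-36 ligand genes and their receptor gene thus lay on opposite sides over all cells. In neutrophil-like cells they did not: Il1f9 had 766 CPM in DPCP and 347 CPM in control, and Il1rl2 13.9 and 6.38 CPM (3 control UMIs). In monocyte-like cells Il1f9 was called higher in DPCP, at 24.2 against 5.89 CPM. In macrophage-like cells Il1f9 had 11.2 CPM in DPCP and 7.76 CPM in control, with overlapping intervals, and was not called. Il1rl2 had the lower level in DPCP in monocyte-like (2.53 against 4.87 CPM) and macrophage-like cells (17.3 against 23.5 CPM). The Il1rl2 intervals of DPCP and control overlapped in each of these classes.

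Of 11 signalling genes, the kinase gene Irak2 (3.10) and Irak3 (2.67), whose product restrains the pathway, were higher and none was lower. Of 17 inflammasome and pyroptosis genes, Mefv, which encodes the sensor pyrin (8.05), Ninj1, needed for membrane rupture (4.23), and the gasdermin gene Gsdme (2.73) were higher. Pycard, which encodes the adaptor ASC (0.439), and the sensor gene Nlrp1b (0.434) were lower. Gsdmd, whose product forms the pores through which interleukin-1 beta leaves the cell, had 40.1 CPM in DPCP and 37.3 CPM in control and was not called. In neutrophil-like cells 6 of 36 were higher and 4 lower (5.81% and 14.0% of all genes). Pycard had 29.2 CPM in DPCP and 99.99 CPM in control there, a ratio of 0.292 (0.217 to 0.402), while Mefv had 191 CPM and 27.7 CPM. Gsdme, higher over all cells, had 114 CPM in DPCP and 221 CPM in control neutrophil-like cells, a ratio of 0.518 (0.425 to 0.636).

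The genes whose levels ran most like each member were taken by Pearson's r of log2(CPM + 1) over 16 sums of a class and condition, among 11830 genes. These sums share 1 library and differ in depth, and the values are descriptions. Il1a ran with Cd14 (0.97), Junos (0.937) and Alas1 (0.932), and Il1b with Trem1 (0.949), Lonrf1 (0.943) and Crk (0.942). Trem1 is among the markers that define the neutrophil gate. Il1rn ran with Acod1 (0.959), Cxcl2 (0.957) and Hcar2 (0.956), and Il1r2 with Ifitm1 (0.937), Mapk13 (0.913) and Gcnt2 (0.907). Il1rap ran with Rab44 (0.947), Ppp1r3b (0.94) and Adipor1 (0.939), and Nlrp3 with Cd300lf (0.963), Trib1 (0.957) and Fbxl5 (0.95). The genes not called over all cells had other company. Il18 ran with Mpeg1 (0.941), 5031439G07Rik (0.918) and Clec12a (0.918), and Casp1 with Naip2 (0.915), Rnf130 (0.909) and Dhx58 (0.9). Il1r1 ran with Stk32c (0.777), Knl1 (0.749) and Ptpn4 (0.748). Casp4, which was called higher over all cells, ran with Lysmd4 (0.856), Zfp36 (0.834) and Nfkbiz (0.83). The values of Il1r1 and Casp4 were the lowest of the list.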

How the data were processed

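The authors deposited UMI counts per gene and barcode, whole numbers without normalization. Per the submitters' processing notes Cell Ranger 6.1.1 and Seurat 4.0.1 were used with mm10, while the matrix header, one of the file headers, gives Cell Ranger 7.0.0. Barcode suffixes and the deposited aggregation table give each barcode's tag, and no barcode sequence carried both suffixes (0 shared). The members and gene lists were chosen with earlier results of these data known.

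Barcodes with fewer than 200 genes or over 10% mitochondrial UMIs were dropped. A gate scored each cell on marker lists, with limits set from marker UMIs after those were seen, and needed a score of 0.15, a lead of 0.05 and 3 markers. Cells that passed gates of different lineages were set aside as mixed, and Scrublet scores served for an alternative. Clusters left out the 10 genes and used 2000 variable genes, 30 components, 15 neighbours and Leiden resolution 1 (scanpy 1.11.5, leidenalg 0.10.2). Summed UMIs of a class in a condition were scaled to CPM. Levels have exact Poisson intervals, ratios with exact conditional binomial intervals and shares with exact Clopper-Pearson intervals. A gene with at least 50 UMIs was called at 2-fold or 0.5-fold with an interval that excludes 1, in classes of at least 50 cells per condition. With 1 tagged sample per condition there is no test. The intervals were tested on simulated Poisson counts, the model that they assume. That test therefore says nothing of UMIs gathered in few cells. Named were the 10 members, pathway genes called over all cells and the 3 genes most like each member. Gsdmd, clusters 18, 1 and 2 and the Langerhans cell-like cells were added after their values were seen. Python 3.11.15, numpy 2.4.6, scipy 1.17.1, R 4.3.3 and edgeR 4.0.16 (TMM only) were used.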

Additional observations from a re-analysis of the deposited data

How the results depend on the processing

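Of 754 ratios of the 10 genes recomputed under other settings, 708 kept their call as higher, lower or neither. A further 31 lost a call, 14 gained one and 1 called ratio crossed 1. The kept calls include 58 ratios at a minimum of 10 UMIs and 45 at a minimum of 200 UMIs. Those settings changed only which genes were tested, so these calls could not change. Direction was followed only for ratios called in the main setting. An uncalled ratio that crossed 1 without a call counts as kept, as that of Il18 in monocyte-like cells did within cluster 5. The number of genes called moved as follows. When cells were weighted equally by averaging their CPM, 1 gene (Il1r1) was lower over all cells and 1 (Il1r1) in neutrophil-like cells, in place of 0. That setting used the 2-fold limit alone, without an interval. Its neutrophil-like call rests on 81 DPCP UMIs and 1 control UMI. The main ratio there lay on the other side of 1, at 1.71 (0.298 to 68.2). With named clusters, 7 were higher in monocyte-like cells in place of 4, 7 were higher in T cell-like cells in place of 2, and 1 (Il18) was lower in mature dendritic cell-like cells in place of 0. Without cells rich in neutrophil RNA, 2 were higher in monocyte-like, 3 in macrophage-like (in place of 6) and 1 in epidermal gamma-delta T cell-like cells. With stricter gates, 5 were higher in epidermal gamma-delta T cell-like cells in place of 2. A minimum of 10 UMIs gave 4 higher there, added Il1r1 in monocyte-like (3.46) and mature dendritic cell-like cells (4.89) and Nlrp3 in T cell-like cells (5.35) as higher, and gave 1 lower (Il18) in mature dendritic cell-like cells and 2 lower (Il1r1 and Casp1) in T cell-like cells. A minimum of 200 UMIs gave 1 higher in T cell-like cells and 0 lower in type 2 dendritic cell-like cells, because fewer genes were tested. For the other settings the cause was not tested. Another setting added after seeing the data kept of each class only the gated cells of its 1 most shared cluster. It left 1 gene (Casp4) higher in neutrophil-like cells in place of 6 and 2 (Il1b and Il1r2) in monocyte-like cells in place of 4, and the Il1rn ratio of neutrophil-like cells fell below 1, to 0.998. The limit to control cells with at least 95% own tag was added after seeing the data and gave no value for neutrophil-like cells, of which 43 were left. No paired analysis was possible because each condition is 1 tagged sample. The main limits are that the number of mice per tag is not known and that 131 control neutrophil-like cells set every ratio of that class.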

Other observations

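In the control, cell classes without enough DPCP cells to compare also carried these genes. Group 2 innate lymphoid cell-like cells (74 control cells) had 76.3 CPM of Casp4 (55.4 to 102), with an interval above that of macrophage-like cells (35.9 to 48.3), and 72.8 CPM of Il1rap (52.5 to 98.4), below neutrophil-like cells only among the 9 classes with at least 50 control cells. The 49 control Langerhans cell-like cells, outside those 9, had 161 CPM of Il1rap (129 to 198). Type 1 dendritic cell-like cells (88 control cells) had 70.6 CPM of Il18 (53.9 to 90.9), next to monocyte-like cells at 80.6 CPM (72.9 to 89.0), with overlapping intervals. Cluster 13, which held monocyte and neutrophil markers in the same barcodes, had 1645 CPM of Il1b in 287 DPCP cells, and 45.1% of its cells were set aside as mixed.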
